A study of Mus musculus with 6 samples.

Results

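The growth signalling genes described here are the ligands, activator and receptors of the HGF-MET and EGF-ERBB systems: Hgf, Hgfac, Met, Egf, Areg, Hbegf, Egfr, Erbb2 and Erbb3. They were taken by name, and all 9 were found among the 54532 named gene rows of the count table through the GENCODE annotation of GRCm38. Liver poly(A) RNA was sequenced from 6 mice, 3 Cd44 knockout (Cd44-/-, allele B6.Cg-Cd44tm1Hbg/J) and 3 wild-type, 1 library per mouse. Both genotypes drank ethanol at 5% by volume in a Lieber-DeCarli diet over 10 days, then took a gavage dose of 5 g/kg ethanol on day 11 and were killed 9 hours later, so the comparison is between genotypes within ethanol-exposed liver, and liver without ethanol was not analysed here. The labels name no Cre driver for the knockout and give neither the age of the mice nor the strain of the wild-type animals.

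Hepatocyte growth factor (HGF) is secreted in the liver by stellate and endothelial cells as an inactive precursor, is cut by serine proteases such as the HGF activator encoded by Hgfac, and binds the receptor tyrosine kinase MET on hepatocytes. Ligands of the epidermal growth factor (EGF) family are made as membrane-bound precursors, are released by cell surface proteases and bind receptors of the ERBB family, of which hepatocytes carry mainly EGFR and ERBB3. Both systems drive hepatocyte survival and regeneration. CD44, the hyaluronan receptor that the knockout lacks, is known in variant isoforms as a co-receptor of MET and as a heparan sulphate carrier that presents HB-EGF. The counts are per gene and do not separate CD44 isoforms.

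Libraries held 15429784 to 19293777 counts in named genes. Cd44 had 1, 0 and 0 counts in knockout mice 1, 2 and 3, against 590, 175 and 568 counts in wild-type mice 1, 2 and 3, so every library fitted its genotype label. The hepatocyte marker Alb ran from 72130 to 88519 CPM in knockout livers and from 63868 to 80852 CPM in wild-type livers. Levels below are CPM, counts relative to the library total after scaling of the libraries by TMM, a normalisation that trims extreme genes. Fold changes are knockout over wild-type on the log2 scale with a standard error, from edgeR's quasi-likelihood test with Benjamini-Hochberg adjustment over 14145 genes.

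None of the 9 growth signalling genes passed the adjusted threshold of 0.05. Over all genes tested, 0.0141% passed in edgeR, 2.38% in DESeq2 and 0% in limma-voom, and 0 of the 9 passed in any of these tools. At an unadjusted p under 0.05, 1 member was higher (Met) and 1 lower (Hbegf) in the knockout, where 12.8% of all genes tested lay below that p. Met and Egf were the 2 members whose knockout and wild-type mice did not overlap, both higher in the knockout, where 18.2% of all genes did not overlap and 8.81% did so with the knockout higher. The median log2 fold change of the 9 genes was 0.21, beside −0.01 for all genes tested, and 6 of the 9 had a higher mean in the knockout.

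**Figure D1:**
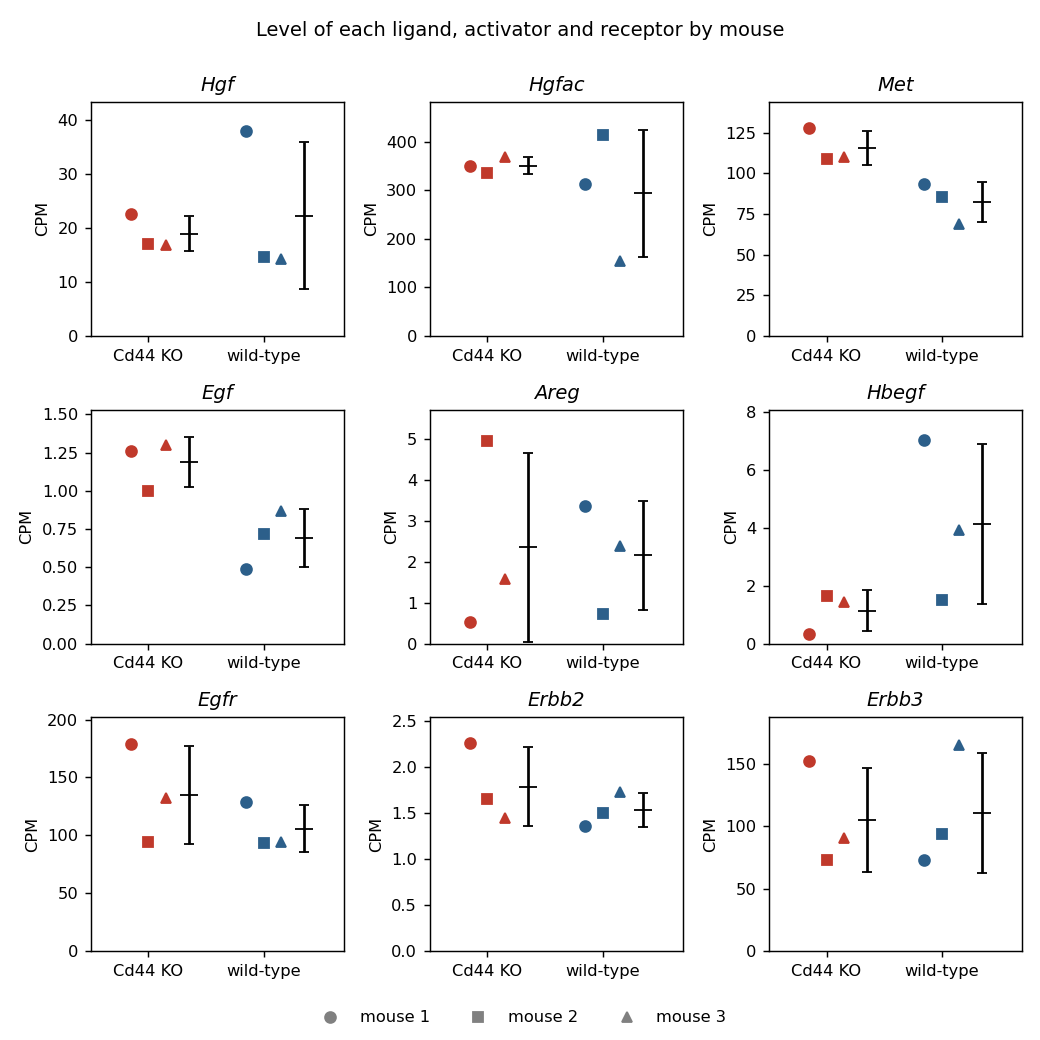
CPM of each of the 9 genes (vertical axis, starting at 0) in 3 Cd44 knockout and 3 wild-type livers, with 1 point per mouse, its shape giving the mouse number, and a bar for the mean ± SD of each genotype. Knockout Met, at 109 to 128 CPM, lies above the highest wild-type value of 93.4 CPM, whereas most other panels show overlapping genotypes.

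Met, the HGF receptor (ENSMUSG00000009376, GRCm38 chromosome 6, 17463800 to 17573980, plus strand), was at 128, 109 and 109.9 CPM in knockout mice 1, 2 and 3, against 93.4, 85.3 and 68.9 CPM in wild-type mice 1, 2 and 3. The lowest knockout liver was thus above the highest wild-type liver. Means were 116 ± 10.8 CPM in knockout and 82.5 ± 12.5 CPM in wild-type livers (SD, n = 3 each). The log2 fold change of 0.49 ± 0.15 corresponds to 1.40-fold with a 95% interval of 1.11 to 1.77, and its adjusted p of 0.249 in edgeR did not pass (0.114 in DESeq2 and 0.294 in limma-voom). Its direction was the same in all 13 alternative fits, which gave log2 fold changes of 0.37 to 0.59 and adjusted p of 0.114 to 0.698. Markers of hepatocytes, which carry most of the MET in liver, had summed levels of 85189 to 106067 CPM in knockout and 79619.6 to 94622 CPM in wild-type livers. Most of each sum was Alb. Of the 6 markers 0 were at zero and 0 separated the genotypes, beside 18.2% of all genes, and nothing is read from that count. The part of hepatocytes in the Met values was not tested.

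Hgf, the ligand of MET (ENSMUSG00000028864, chromosome 5, 16553495 to 16620152, plus strand), was at 22.6, 17.1 and 16.9 CPM in knockout mice and at 37.9, 14.6 and 14.2 CPM in wild-type mice. Wild-type mouse 1 stood alone at the top, and the other 5 livers lay within 14.2 to 22.6 CPM. On the log2 scale the difference was −0.24 ± 0.39 (0.849-fold, 95% interval 0.448 to 1.61; adjusted p = 0.866 in edgeR), and it turned to 0.39 ± 0.18 without wild-type mouse 1. Of the cells that make HGF, stellate cell and fibroblast markers summed to 254, 259 and 206 CPM in knockout mice and to 251, 306 and 292 CPM in wild-type mice. In that sum wild-type mouse 1 was the lowest wild-type liver. Sinusoidal endothelial markers summed to 307, 233 and 198 CPM in knockout mice and to 375, 239.9 and 153 CPM in wild-type mice. There wild-type mouse 1 was highest, as for Hgf. None of the 8 and 6 marker genes was at zero in all livers, and their part in the Hgf values was not tested. In whole liver, fewer cells of a type and less RNA per cell cannot be told apart.

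Hgfac, which encodes the serine protease that activates HGF (ENSMUSG00000029102, chromosome 5, 35041509 to 35048461, plus strand), was at 349, 335 and 368 CPM in knockout mice. Wild-type mice 1, 2 and 3 had 312, 414 and 154 CPM. The knockout livers lay close together, within 1.10-fold of each other, whereas wild-type livers spanned 2.70-fold and enclosed the knockout range. The fitted log2 difference was 0.26 ± 0.32 (1.20-fold, 95% interval 0.715 to 2.00; adjusted p = 0.807 in edgeR) and −0.05 ± 0.16 without wild-type mouse 3, the lowest liver.

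Egf, the founding ligand of the EGF family (ENSMUSG00000028017, chromosome 3, 129677565 to 129755316, minus strand), had the lowest mean level per kb of exon among the 9 genes in both genotypes. It had 19, 20 and 19 counts in knockout mice and 9, 11 and 17 counts in wild-type mice, which is 1.26, 1.00 and 1.30 CPM in knockout and 0.489, 0.718 and 0.866 CPM in wild-type livers. The genotypes did not overlap, but the nearest libraries, knockout mouse 2 and wild-type mouse 3, held 20 and 17 counts. The low-count filter needed 3 libraries at the level of 10 counts, which the 3 knockout libraries alone gave, with 2 wild-type libraries beside them. In edgeR the log2 fold change was 0.76 ± 0.38 (1.69-fold, 95% interval 0.929 to 3.09; adjusted p = 0.451 in edgeR).

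Areg, or amphiregulin, an EGFR ligand induced in injured liver (ENSMUSG00000029378, chromosome 5, 91139599 to 91148432, plus strand), was at 0.531, 4.96 and 1.58 CPM in knockout mice 1, 2 and 3, against 3.37, 0.718 and 2.39 CPM in wild-type mice 1, 2 and 3. In counts these are 8, 99 and 23 for knockout and 62, 11 and 47 for wild-type libraries. Both the highest and the lowest liver were knockouts. The range within a genotype was 9.34-fold among knockout and 4.70-fold among wild-type mice, the widest of the 9 genes among knockout mice. The log2 fold change of 0.15 ± 0.77 had a 95% interval of −1.67 to 1.97 (adjusted p = 0.961 in edgeR), so neither a doubling nor a halving lay outside it, and it was −1.06 ± 0.73 without knockout mouse 2.

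Hbegf, which encodes heparin-binding EGF-like growth factor, a ligand of EGFR and ERBB4 (ENSMUSG00000024486, chromosome 18, 36504927 to 36515805, minus strand), was at 0.332, 1.65 and 1.44 CPM in knockout mice and at 7.02, 1.50 and 3.92 CPM in wild-type mice. In counts these are 5, 33 and 21 for knockout and 129, 23 and 77 for wild-type libraries. The 3 libraries that the low-count filter needed were given by the wild-type libraries alone, with 2 knockout libraries beside them, as also for Areg. Wild-type mice 1 and 3 stood above all knockout livers, and wild-type mouse 2 lay between knockout mice 2 and 3. Means were 1.14 ± 0.709 CPM in knockout and 4.15 ± 2.76 CPM in wild-type livers (SD, n = 3 each). On the log2 scale the difference of −1.84 ± 0.66 (0.280-fold, 95% interval 0.0970 to 0.808) was the largest in size of the 9 genes and did not pass, with an adjusted p of 0.312 in edgeR and 0.108 in DESeq2. Over the 13 alternatives it ran from −2.24 to −1.24, with adjusted p of 0.103 to 0.748.

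Macrophages are a known source of HB-EGF, and the markers of Kupffer cells, which are macrophages that reside in liver, followed the same order among wild-type mice as Hbegf. Kupffer cell markers summed to 166, 173 and 179 CPM in knockout mice 1, 2 and 3, against 635, 189 and 485 CPM in wild-type mice 1, 2 and 3. In knockout livers all 6 of these markers had a lower mean, 4 of 6 separated the genotypes, where 18.2% of all genes did so, and 0 passed in edgeR and 3 in DESeq2, where it called 2.38% of all genes. Monocyte and macrophage markers summed to 113, 138 and 99.4 CPM in knockout and to 306, 160.5 and 319 CPM in wild-type mice. The mean of each of those 6 was again lower in knockout livers, 3 of 6 separated the genotypes and 2 passed in DESeq2, and no marker of either list was at zero in all livers. Among knockout mice, mouse 1 had both the lowest Hbegf and the lowest Kupffer cell sum, although the 3 sums lay close together, whereas the sum of monocyte and macrophage markers was lowest in mouse 3. Lower sums in every knockout liver were not limited to macrophage lists. Neutrophil markers summed to 0.902 to 2.72 CPM in knockout and 3.79 to 4.48 CPM in wild-type livers. Only 3 of these 6 markers could be tested, and the sums rest on few counts. Mmp9, for example, had 6, 6 and 5 counts in knockout and 19, 21 and 18 counts in wild-type libraries. Cholangiocyte markers summed to 27.5 to 36.4 CPM in knockout and 51.9 to 65.2 CPM in wild-type livers. Most of that sum was Spp1, at 25.5, 22.9 and 18.1 CPM in knockout and 36.5, 52.7 and 42.3 CPM in wild-type mice. Of the 5 cholangiocyte markers tested, Spp1 was the 1 that separated the genotypes, beside 18.2% of all genes. The part of any of these cells in the Hbegf values was not tested.

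**Figure D2:**
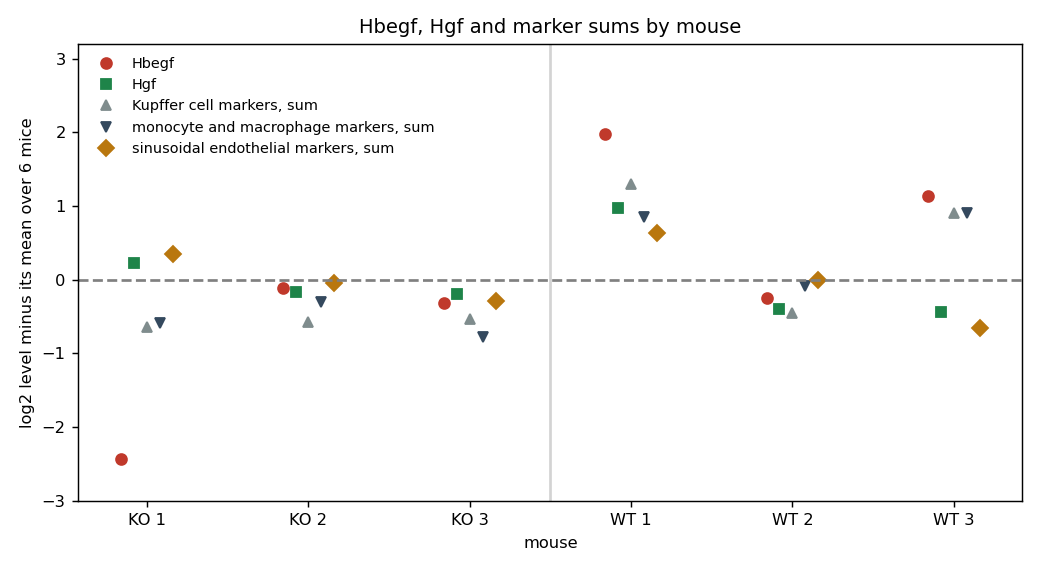
Log2 level minus its own mean over the 6 mice (vertical axis) for Hbegf, Hgf and the summed CPM of 3 marker lists, by mouse, knockout mice on the left. Hbegf and both macrophage sums are high in wild-type mice 1 and 3, while Hgf and the endothelial sum are highest in wild-type mouse 1.

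Of the EGF receptors, Egfr (ENSMUSG00000020122, chromosome 11, 16752203 to 16918158, plus strand) was at 179, 94.3 and 132 CPM in knockout mice, against 129, 93.7 and 94.4 CPM in wild-type mice. Knockout mice 1 and 3 stood above every wild-type liver, and knockout mouse 2 lay with wild-type mice 2 and 3. The fitted log2 difference was 0.35 ± 0.24 (1.28-fold, 95% interval 0.867 to 1.89; adjusted p = 0.609 in edgeR) and 0.11 without knockout mouse 1.

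Erbb3, whose product has an impaired kinase and signals in dimers with other ERBB receptors (ENSMUSG00000018166, chromosome 10, 128567523 to 128589652, minus strand), was at 152, 72.7 and 90.4 CPM in knockout mice. It was at 73.3, 93.5 and 165 CPM in wild-type mice. One liver of each genotype, knockout mouse 1 and wild-type mouse 3, stood far above the other 4, and the genotypes overlapped over nearly their whole range. Its log2 fold change was −0.07 ± 0.37 (0.950-fold, 95% interval 0.518 to 1.74; adjusted p = 0.961 in edgeR), and its sign turned when knockout mouse 2, knockout mouse 3 or wild-type mouse 3 was left out.

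Erbb2, the family member with no known ligand of its own (ENSMUSG00000062312, chromosome 11, 98412470 to 98437716, plus strand), was low throughout, with 34, 33 and 21 counts in knockout and 25, 23 and 34 counts in wild-type libraries. These are 2.26, 1.65 and 1.44 CPM in knockout mice and 1.36, 1.50 and 1.73 CPM in wild-type mice, which overlapped. The log2 fold change was 0.21 ± 0.31 (1.16-fold, 95% interval 0.710 to 1.89; adjusted p = 0.839 in edgeR). Its exons overlap those of Mien1 on the opposite strand by 9 bases.

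**Figure D3:**
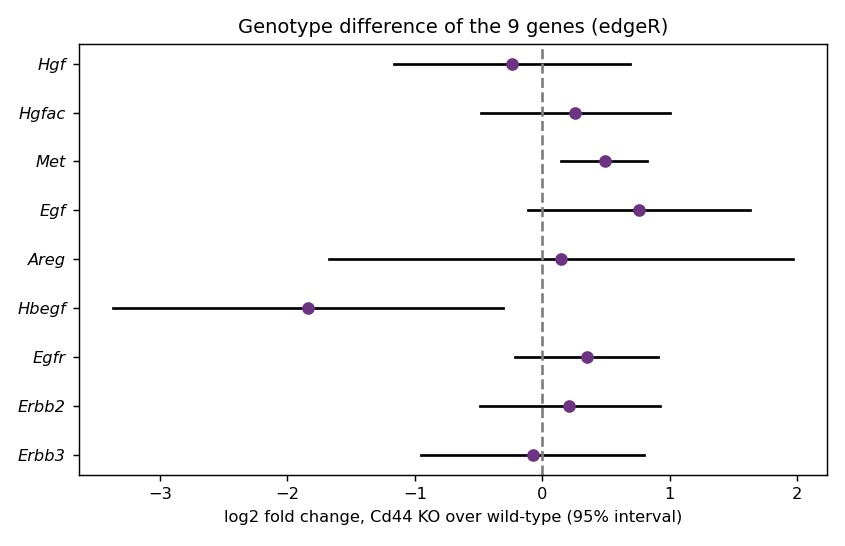
Log2 fold change of knockout over wild-type livers (horizontal axis) for the 9 genes, points with 95% intervals from the edgeR fit and a dashed line at no difference. The intervals of Met (0.15 to 0.82) and Hbegf (−3.37 to −0.31) do not cross the line before adjustment for multiple testing, and Areg has the widest.

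Levels of different genes were compared as CPM per kb of exon. In knockout livers the order was Hgfac at 103, Erbb3 at 17.5, Met at 15.1, Egfr at 11.9, Hgf at 2.63, Areg at 1.94, Erbb2 at 0.342, Hbegf at 0.236 and Egf at 0.105 CPM per kb. Wild-type livers gave Hgfac at 85.9, Erbb3 at 18.4, Met at 10.7, Egfr at 9.32, Hgf at 3.09, Areg at 1.78, Hbegf at 0.858, Erbb2 at 0.294 and Egf at 0.0613 CPM per kb. The activator Hgfac stood clear of every receptor in each of the 6 livers, and the 3 receptors Erbb3, Met and Egfr stood clear of the 4 ligands among the 9 genes. Neighbours within the receptors overlapped, except that the wild-type ranges of Erbb3 (12.2 to 27.4 CPM per kb) and Met (8.97 to 12.2 CPM per kb) met without crossing. Erbb2 lay far below the other receptors in both genotypes. The places of Hbegf and Erbb2 were exchanged between the genotypes, but their ranges overlapped in each. Hgf and Areg overlapped as well, in knockout and in wild-type livers.

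**Figure D4:**
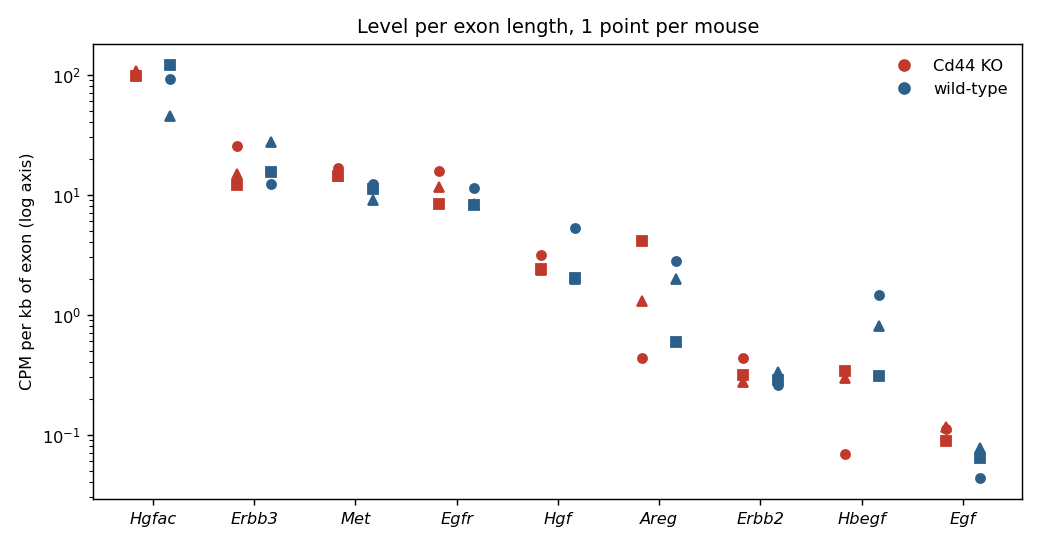
CPM per kb of exon (vertical log axis) of the 9 genes, ordered by their knockout mean, with 1 point per mouse and the mouse number given by the shape, knockout left of wild-type. Hgfac is at the top at 45.0 to 121 CPM per kb, a group of 3 receptors follows, and Egf has the lowest mean in both genotypes.

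Sequence upstream of the annotated start is shown for Met and Egf, whose genotypes did not overlap, and for Areg, whose livers differed most within the knockout. It comes from RefSeq on GRCm38.p6, reads 5′ to 3′ on the gene's own strand and ends where the first annotated transcript begins, or 250 bases after its own start. Capitals mark matches on either strand to the GC box GGGCGG, the TATA box TATAAA or the cyclic AMP response element TGACGTCA. The AP-1 site, as TGACTCA or TGAGTCA, and the E-box CACGTG were searched and marked likewise.
Met, chr6:17463707-17463799, plus strand: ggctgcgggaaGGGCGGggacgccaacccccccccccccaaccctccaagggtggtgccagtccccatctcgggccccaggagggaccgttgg
Egf, chr3:129755323-129755572, minus strand: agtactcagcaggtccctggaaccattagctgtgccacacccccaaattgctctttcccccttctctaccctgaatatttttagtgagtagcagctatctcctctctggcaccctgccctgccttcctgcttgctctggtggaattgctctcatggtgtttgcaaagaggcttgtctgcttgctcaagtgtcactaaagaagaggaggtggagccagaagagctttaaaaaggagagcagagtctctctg
Areg, chr5:91139349-91139598, plus strand: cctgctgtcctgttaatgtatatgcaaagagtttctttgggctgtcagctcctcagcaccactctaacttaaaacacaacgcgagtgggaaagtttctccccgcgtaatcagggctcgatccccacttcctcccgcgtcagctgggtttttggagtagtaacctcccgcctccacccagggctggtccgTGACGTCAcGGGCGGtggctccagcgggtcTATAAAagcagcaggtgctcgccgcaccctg
The Areg stretch of 250 bases held the cyclic AMP response element 61 bases, a GC box 52 bases and a TATA box 31 bases before the start. Among 32851 RefSeq windows of that length, 1.55% held the cyclic AMP response element, 32.7% a GC box and 12.4% a TATA box. The Met stretch of 93 bases held 1 GC box, as did 9.67% of windows cut to their first 93 bases. In other windows those bases need not end at the start of the gene, so the share is not a like background. None of these letters was found in the Egf stretch.

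Genes whose levels over the 6 livers lay nearest to those of a member were found by the root mean square difference of log2 CPM, each centred on its own mean, among 11129 protein-coding genes. Nearest to Met were Mettl2, at 15.1, 13.6 and 14.1 CPM in knockout and 10.6, 9.99 and 8.46 CPM in wild-type mice, then Parp4 and Dhx29, with differences of 0.06, 0.06 and 0.07. For Hgf they were Cyp26b1, which breaks down retinoic acid, Txnrd1, or thioredoxin reductase, and Cdh5, the endothelial cadherin, with differences of 0.14, 0.16 and 0.17. Cdh5 was at 28.7, 24.8 and 22.3 CPM in knockout mice and 58.9, 25.5 and 23.5 CPM in wild-type mice, again with wild-type mouse 1 alone at the top. Unkl, Tent5a and Zfp11 were nearest to Egfr, at 0.12, 0.13 and 0.14. With so many genes and 6 livers such likeness is a description only.

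Other genes of the 2 systems were read from lists of the same annotation. For none of their genes did limma-voom give a call. Of 8 proteases known to activate HGF or the related macrophage-stimulating protein, 0 passed in edgeR or DESeq2 and 2 had an unadjusted edgeR p under 0.05, both lower, with a median log2 fold change of 0.12. Plau, or urokinase, was at 2.52, 2.15 and 1.99 CPM in knockout and 3.97, 3.92 and 5.10 CPM in wild-type mice (−0.96 ± 0.25, adjusted p = 0.217 in edgeR). Plat, or tissue plasminogen activator, was at 1.26, 1.95 and 1.03 CPM in knockout and 2.72, 3.46 and 4.59 CPM in wild-type mice (−1.31 ± 0.34, adjusted p = 0.220). Both separated the genotypes. The shares over all genes were 12.8% at that unadjusted p and 18.2% without overlap, and nothing particular to the proteases is read from 2 of 8. F2, or prothrombin, gave 0.21 ± 0.19 and St14, or matriptase, 0.28 ± 0.33.

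Of the inhibitors of these proteases, Spint1 and Spint2, the membrane-bound inhibitors of HGF activator and matriptase, gave log2 fold changes of −0.40 ± 0.33 and −0.12 ± 0.14 and did not pass in edgeR. Serpina5 was too low to test.

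The median of 11 MET relatives and co-receptors was −0.07, and Cd44 alone passed, which is the targeted gene (log2 fold change −9.78 ± 0.77, adjusted p = 0.00647 in edgeR). The call was lost without any 1 of the 3 knockout libraries and with limma-voom, at adjusted p up to 0.331, while the log2 fold change was −11.73, −9.20 and −9.40 without knockout mouse 1, 2 and 3 and −9.00 with limma-voom. Since the knockout libraries held 1 count of Cd44 in all, the size of these values depends on the fit. Icam1, an adhesion molecule also described as a MET co-receptor, gave −0.46 ± 0.22, the laminin-binding integrin Itga6 −0.59 ± 0.32 and the neuropilin Nrp2 0.57 ± 0.33, and all 3 overlapped between the genotypes.

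Of 9 other EGF family ligands and ERBB4, 5 were tested and 0 passed in edgeR or DESeq2. At an unadjusted edgeR p under 0.05, 2 were higher and 1 lower, where 12.8% of all genes lay below that p. The genotypes did not overlap for 2 of the 5, beside 18.2% of all genes. The receptor Erbb4 was at 1.79, 2.91 and 3.50 CPM in knockout and 1.14, 1.44 and 0.306 CPM in wild-type mice, with no overlap (1.54 ± 0.50, adjusted p = 0.277 in edgeR). Wild-type mouse 3 held 6 counts of Erbb4, under the level of 10 counts that the low-count filter needed in 3 libraries. Of the 2 genotypes only the knockout gave that alone. The ERBB4 ligand Nrg1 was at 14.7, 33.4 and 22.8 CPM in knockout and 14.7, 5.74 and 14.2 CPM in wild-type mice (1.03 ± 0.41, adjusted p = 0.369). Tgfa, an EGFR ligand made by hepatocytes, was at 26.1, 26.3 and 19.6 CPM in knockout mice, all below the 31.5, 27.5 and 46.3 CPM of wild-type mice (−0.55 ± 0.21, adjusted p = 0.345). Nrg4, whose exons overlap those of Fbxo22 on the opposite strand and whose counts are uncertain, gave −0.26 ± 0.32. Per kb of exon Nrg4, at 7.66 in knockout and 9.17 CPM per kb in wild-type livers, and Tgfa, at 3.70 in knockout and 5.41 CPM per kb in wild-type livers, had higher means than Areg, Hbegf or Egf in both genotypes. Epgn and Nrg3 had no counts in any liver.

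All 7 genes for the release of these ligands were lower on average in knockout livers (median −0.35). Over all 14145 genes tested, 7224 were lower and the median was −0.01. In edgeR and DESeq2 0 of the 7 passed. An unadjusted edgeR p under 0.05 was found for 2, where 12.8% of all genes lay below that p. The genotypes did not overlap for 2 of the 7, beside 18.2% of all genes. Adam17, the protease that releases AREG and HB-EGF, was at 22.7, 23.0 and 19.2 CPM in knockout and 30.5, 23.2 and 27.7 CPM in wild-type mice (−0.33 ± 0.15, adjusted p = 0.409 in edgeR), uncertain because its exons overlap those of Iah1 on the opposite strand. Rhbdf2, a carrier that matures ADAM17 in myeloid cells, was at 17, 20.3 and 19.1 CPM in knockout and 36.0, 17 and 45.5 CPM in wild-type mice (−0.81 ± 0.32, adjusted p = 0.367), high in the 2 wild-type mice that had the most Hbegf. It passed only without wild-type mouse 2, its lowest wild-type liver (−1.11 ± 0.16, adjusted p = 0.0374 in edgeR), in a fit that called 151 genes. Frmd8, which stabilises the complex, gave −0.85 ± 0.36, and Adam12 −1.29 ± 0.55. Adam12 had 9, 7 and 4 counts in knockout libraries and 12, 11 and 31 counts in wild-type libraries. Only the wild-type libraries reached the level of 10 counts that the low-count filter needed.

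Below the receptors, 0 of 29 adaptors and kinases passed in edgeR or DESeq2, with a median of 0.01. At an unadjusted edgeR p under 0.05, 1 was higher and 1 lower, where 12.8% of all genes lay below that p. Mapk3, which encodes the kinase ERK1, was at 42.1, 42.4 and 37.2 CPM in knockout and 50.9, 48.9 and 52.8 CPM in wild-type mice (−0.33 ± 0.11, adjusted p = 0.290 in edgeR). Stat3 was at 216, 177 and 173 CPM in knockout and 166, 96.8 and 133 CPM in wild-type mice (0.52 ± 0.20, adjusted p = 0.348). Neither gene overlapped between the genotypes. In all, 4 of the 29 did not overlap, beside 18.2% of all genes. Pik3r2 and Gab2 gave −0.36 ± 0.17 and −0.60 ± 0.28 and overlapped.

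Of 15 receptor feedback inhibitors, 11 were lower on average in knockout livers and 0 passed in edgeR or DESeq2, with a median of −0.07. At an unadjusted edgeR p under 0.05, 2 were lower. Over all 14145 genes tested, 7224 were lower on average, and 12.8% lay below that p in either direction. The genotypes did not overlap for 4 of the 15, beside 18.2% of all genes. Errfi1, or MIG6, which binds and blocks the EGFR kinase, was at 357, 580.5 and 794 CPM in knockout mice. Wild-type mice had 997, 1277 and 812 CPM, all above the knockout livers (−0.83 ± 0.30, adjusted p = 0.314 in edgeR). Spry4, an inhibitor of signalling to ERK, was at 4.18, 5.46 and 4.87 CPM in knockout and 8.21, 5.94 and 8.97 CPM in wild-type mice (−0.67 ± 0.23, adjusted p = 0.290); it also stands in the list of ERK target genes. Ptprj gave −0.37 ± 0.16 and Socs5 −0.30 ± 0.16.

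Of 18 genes known as targets of the ERK pathway, 17 were tested. In knockout livers 14 were lower and 3 higher on average, where 7224 of all 14145 genes tested were lower. The median was −0.43, beside −0.01 for all genes. None passed in edgeR, where 5 were lower at an unadjusted p under 0.05, as were 1073 of all genes tested. The genotypes did not overlap for 3 of the 17, beside 18.2% of all genes. DESeq2 called 2, both lower, where it called 2.38% of all genes. One was Ier3, an immediate early gene, at 2.72, 3.56 and 3.50 CPM in knockout and 11.1, 5.87 and 10.8 CPM in wild-type mice (−1.50 ± 0.29, adjusted p = 0.217 in edgeR and 0.00136 in DESeq2). In edgeR Ier3 passed only without wild-type mouse 2 (adjusted p = 0.0241). That mouse was its lowest wild-type liver, and the fit without it called 151 genes. The other was Dusp5, a phosphatase of ERK, at 1.73, 3.56 and 3.63 CPM in knockout and 22.2, 4.24 and 10.2 CPM in wild-type mice (−2.04 ± 0.60, adjusted p = 0.258 in edgeR and 0.0137 in DESeq2). Fosl1, a component of AP-1 whose exons overlap those of Ccdc85b on the opposite strand over 1163 of 2033 bases and whose counts are therefore uncertain, was at 0.996, 1.45 and 0.411 CPM in knockout and 12, 0.914 and 3.31 CPM in wild-type mice (−2.46 ± 0.92, adjusted p = 0.339 in edgeR). Knockout mouse 3 held 6 counts of Fosl1, under the level of 10 counts that the low-count filter needed, so the wild-type libraries alone met the filter. For Dusp5 and Fosl1, as for Hbegf, wild-type mouse 1 was highest, mouse 3 next and mouse 2 close to the knockout livers, the order also seen in the sum of Kupffer cell markers. Not all ERK target genes kept this order, nor did the sum of monocyte and macrophage markers, which was highest in wild-type mouse 3. What lies behind the order was not tested.

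**Figure D5:**
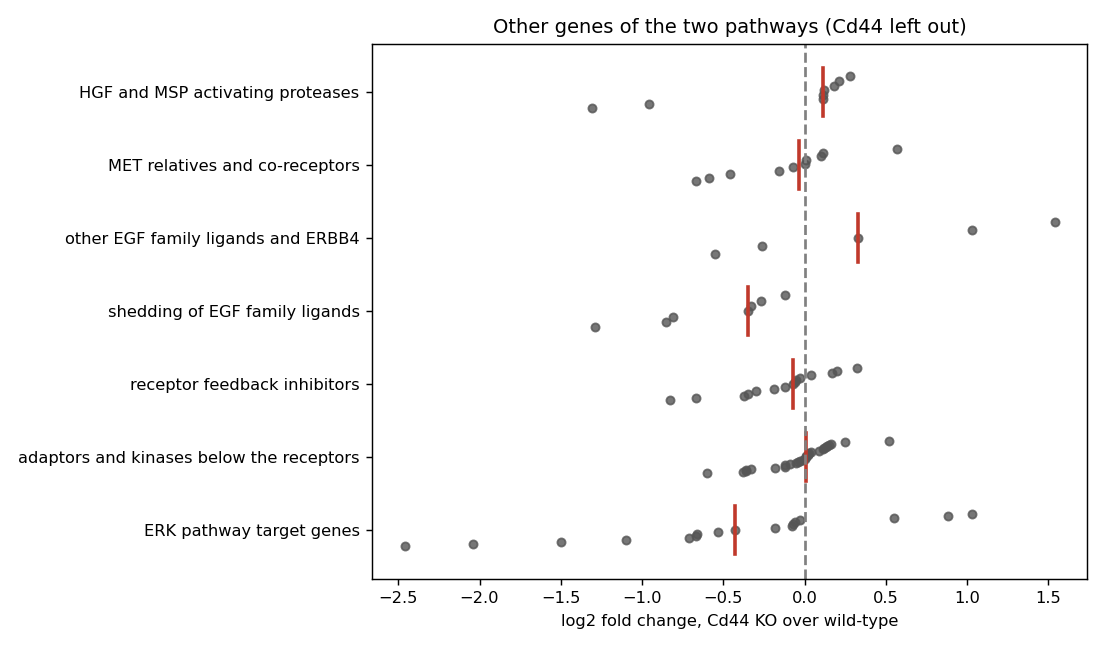
Log2 fold change of knockout over wild-type livers (horizontal axis) for each tested gene of 7 lists, 1 point per gene, with a red bar at the list's median and Cd44 left out. Adaptors and kinases cluster near 0, the 7 ligand release genes all lie below 0, and Fosl1 (−2.46), among the ERK targets, is the lowest point.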

How the data were processed

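The deposited values are raw read counts per Ensembl gene with 1 column per mouse, per the file headers. Per the submitters' processing notes the tools were featureCounts 1.5.0-p3, HISAT2 2.0.5 and StringTie 1.3.3b, and the build GRCm38.p6. The strand setting, the handling of reads that map to several places and the annotation release were not given in the sources used here, so overlapping genes cannot be separated with certainty. Of 54682 rows, 150 were gene models without a name (0.273% to 0.509% of a library's counts) and were left out. GENCODE M21 of the same build gave symbols, positions and union exon lengths for 54495 rows.

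The tests used edgeR 4.0.16 in R 4.3.3 (filterByExpr, TMM, robust quasi-likelihood F test, 14145 genes, threshold 0.05). Groups came from the titles, and mice were the replicates. The standard error is the fold change over the square root of F. On simulated counts of this comparison the fit, run on 14145 genes with 200 changed, found 43.6% of the 2-fold changes and 81.6% of those of 4-fold, and 8.37% of its calls were false. A count of 0 allows up to 3 counts, 0.155 to 0.194 CPM by library, for counting error only. DESeq2 1.42.0, limma 3.58.1 (voom), RLE scaling, other count filters, mouse number as a block, leaving out each library and, chosen after seeing the data, the older quasi-likelihood form were alternatives.

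The members and lists were chosen with earlier results of these data known. Named were the 9 members, Cd44, called genes and up to 4 of each list by smallest p, and the 3 genes nearest in pattern to Met, Hgf and Egfr. Epgn, Nrg3 and Serpina5, not tested, were named after their counts were seen. One gene that this rule names, with the counts of its list, is not reported here.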

Additional observations from a re-analysis of the deposited data

How the results depend on the processing

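No member passed an adjusted p of 0.05 under any of the 13 alternatives, and 108 of 117 member values kept their direction. Those that did not were of Areg, which gave −0.10 with limma-voom and −0.11 with mouse number as a replicate block, and of values with 1 library left out. Leaving out each library gave −0.48 to 0.39 for Hgf, −0.05 to 0.60 for Hgfac, −0.42 to 0.33 for Erbb3 and −1.06 to 0.61 for Areg; the cause was not tested. Over all genes edgeR called 2, against 330 in DESeq2, 0 in limma-voom (1695 at an unadjusted p under 0.05), 6 without the count filter, 1 with the older quasi-likelihood form, 1 with the replicate block and 0 to 151 with 1 library left out (151 without wild-type mouse 2, 1 without knockout mouse 1, and 0 without knockout mouse 2 or 3, where 1445 and 979 had an unadjusted p under 0.05). The labels do not state that mouse numbers pair the samples. Deviations of same-numbered mice correlated at −0.0126, −0.00649 and −0.00503, and no mouse correlated best with its own number. With 3 mice per genotype these values cannot decide whether mice were paired. Egf, Areg, Hbegf and Erbb2 rest on as few as 9, 8, 5 and 21 counts in a library, which limits what could be detected.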
